A study of Mus musculus with 9 samples.

Results

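CTCF peaks over the Foxp1 locus were fewer in naive CD8+ T cells lacking Tcf1 and Lef1 (DKO) than in naive WT cells. At 0 h the DKO lists held 14 and 15 locus peaks and the WT lists 28 and 25, and after 72 h with cytokines the DKO lists held 1 and 3 and the WT lists 4 and 13. Both DKO lists of 72 h were shorter than both WT lists of 72 h. Among the top 10339 peaks of each 72 h list, the counts were 1 and 1 in DKO and 1 and 2 in WT. The locus is the mm9 window chr6:98800000-99600000. It holds 34 of the 39574 regions obtained by merging overlapping peaks of 8 CTCF peak lists, and 103 of the 195796 listed peaks. The window was chosen by the presence of peaks at 0 h, since many of its regions had one in both WT and neither DKO library, so the contrast of DKO with WT at 0 h is given here as a description, with no test. Regions are numbered 1 to 34 from low to high coordinates.

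Foxp1 encodes a forkhead transcription factor that keeps naive T cells quiescent and restrains expression of the IL-7 receptor. CTCF is a zinc-finger protein that binds DNA at insulators and halts cohesin at the anchors of chromatin loops. Tcf1 and Lef1 are HMG-box factors needed for T cell development and for CD8+ T cell identity. RefSeq (GRCm38) places Foxp1 (gene 108655) on the minus strand of chromosome 6 with 3 annotated starts and 5 non-coding genes inside its span, so that higher coordinates lie toward its 5′ side. The next protein-coding gene on that side is Eif4e3, which encodes a cap-binding protein, and on the other side Gm765. Neither gene models nor sequence of mm9 were used here, so regions were not assigned to exons, introns or promoters, and no sequence under a peak is shown.

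All libraries came from splenic naive CD8+ T cells that were sorted as GFP+ TCRbeta+ CD62Lhi CD44lo-med. The mice carried hCD2-Cre, a transgene under human CD2 control that is active in lymphocytes, and Rosa26-lsl-GFP, a reporter that marks cells in which Cre has acted. This held for both genotypes, which differed in whether Tcf1 and Lef1 were floxed (DKO, Tcf1-/-Lef1-/-) or wild type (WT). The 4 groups, with 2 CTCF CUT&RUN libraries each, were DKO and WT after 72 h in vitro with IL-7 and IL-15, and DKO and WT at 0 h, and 1 IgG library came from WT cells at 0 h. Ages were not given, and the labels do not say that replicates came from separate mice. The p-values therefore compare only these libraries, and differences between replicates may be technical. Loss of Tcf1 and Lef1 cannot be checked from CTCF peak lists.

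At 72 h the lists held 10339 and 16234 peaks for DKO cells and 17335 and 26630 for WT cells. At 0 h they held 30309 and 31394 for DKO cells, against 32587 and 30968 for WT cells. The list lengths therefore differ with time and with genotype at 72 h, and a missing peak shows only that none was listed. The IgG library listed 5 peaks, of which 0 lay in the locus. Read totals were not used here. Of the locus regions, 1 of 34 (2.94%) had a peak in all 8 libraries, against 24.2% of all regions, and 7 of 34 (20.6%) had a peak in a single library, against 14.7%.

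The locus regions stood between sparse flanks. Regions were 246 to 1751 bp wide (median 654 bp, against 747 bp over all regions), and neighbours were 0.229 to 85.6 kb apart (median 7.17 kb). The 800 kb below the window held 6 regions and the 800 kb above it 9. At 0 h, both WT libraries listed 6 of them below and 5 above, and both DKO libraries 6 and 6. On either side 0 were found only in WT and 0 only in DKO at 0 h. So few regions cannot show a share unlike the 6.81% and 3.97% over all regions. The lowest region inside the window, region 1 (chr6:98958406-98959209), had a fold of 4.76 in WT replicate 2 at 72 h. At 0 h it had 5.60 in DKO replicate 1, against 5.82 and 5.85 in the WT libraries. When peaks were joined by summits within 100 bp, region 1 held a region found only in WT at 0 h. Its DKO and WT folds may therefore belong to different sites. The nearest region below the window, chr6:98474975-98475880, was listed in 7 libraries with folds of 4.90 to 12.8. The highest region inside was region 34 (chr6:99550174-99550846), and the nearest above the window was chr6:99602083-99602633, with folds of 7.20 and 6.02 in DKO and 5.88 in WT replicate 1 at 0 h. Fold is the authors' enrichment of a peak over its local background, and no CTCF list holds a fold under 4.

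**Figure D1:**
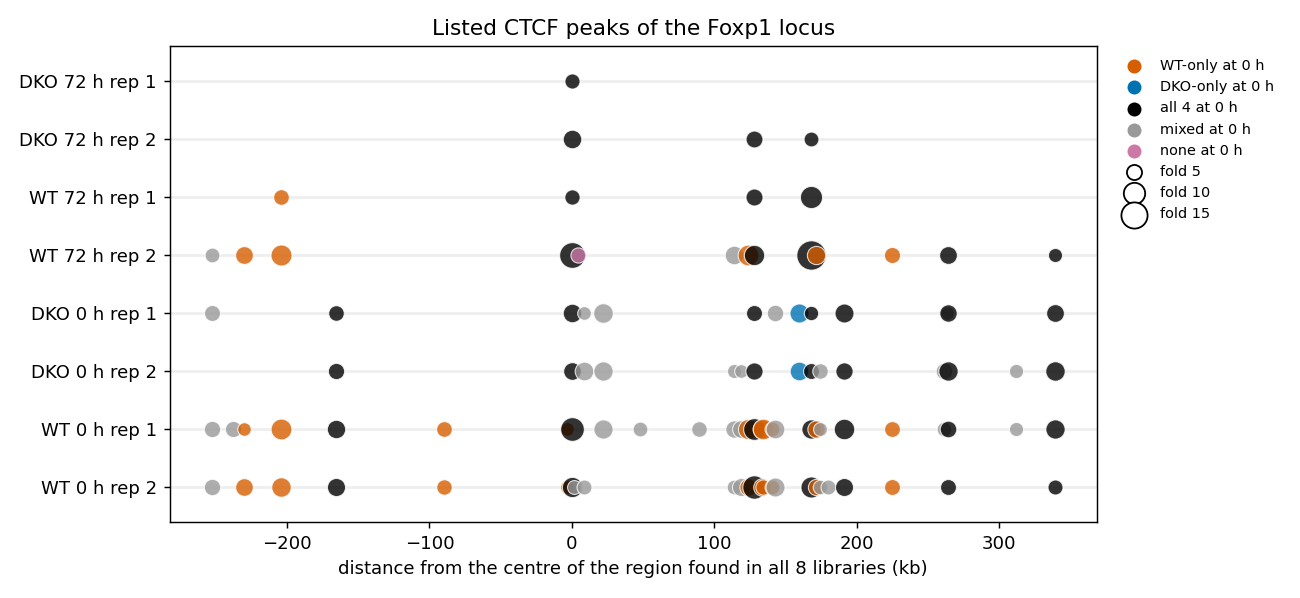
Listed CTCF peaks of the Foxp1 locus, one row per library (DKO above WT, 72 h above 0 h), by distance in kb from the centre of region 8. Circle area is proportional to the authors' fold, and colour gives the libraries that list the region at 0 h. Each circle is a region, at the highest fold of that library in it. The WT rows at 0 h hold 28 and 25 circles, the DKO rows at 0 h 13 and 15, and region 8 is filled in every row. DKO replicate 1 at 0 h has 2 peaks in region 5, drawn as 1 circle.

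At 0 h the DKO libraries listed 14 and 15 peaks in the locus, and the WT libraries 28 and 25. Per 1000 listed peaks this was 0.462 and 0.478 in DKO and 0.859 and 0.807 in WT, with means of 0.470 ± 0.0112 and 0.833 ± 0.0367 (SD, n = 2 each). The groups did not overlap, and the DKO minus WT difference was -0.363 peaks per 1000. The highest rank percentile of a locus peak by −log10 p, where 100 is the top of a list, was 34.7 and 53.0 in DKO and 59.5 and 61.7 in WT at 0 h. The median rank percentile was 17.2 and 29.4 in DKO and 33.7 and 25.5 in WT. The median fold in the locus was 5.77 and 6.44 in DKO and 6.58 and 5.81 in WT, under the list medians of 9.78 to 10.4. Among the top 10339 peaks of each naive list, 0 lay in the locus, so the genotypes could not be told apart at that length. With the naive lists cut to the 30309 peaks of the shortest, 14 and 14 lay in the locus in DKO and 24 and 23 in WT.

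Region 8 (chr6:99210974-99212216) was the only one listed in every library. At 72 h its fold was 5.0 and 7.52 in DKO cells, against 5.10 and 14.5 in WT cells. At 0 h it was 7.51 and 6.83 in DKO cells, against 12.3 and 8.91 in WT cells. At 0 h both DKO values were under both WT values, and at 72 h the genotypes overlapped, with replicate 2 above replicate 1 in each.

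A total of 7 regions were listed in all 4 libraries at 0 h, which were regions 5, 8, 18, 24, 28, 32 and 34. Region 18 (chr6:99338449-99339620) had a fold of 5.60 and 6.44 in DKO and 10.3 and 12.0 in WT. Region 24 (chr6:99378615-99379524) had 4.50 and 5.55 in DKO and 8.09 and 9.68 in WT. Region 5 (chr6:99045153-99046887) had 5.30 and 5.78 in DKO and 7.39 and 7.19 in WT. These 3 regions and region 8 had both DKO folds under both WT folds, which made 4 of 7 (57.1%), against 15% of the 24438 regions listed in all 4 libraries at 0 h. Region 5 is 1735 bp wide. When peaks were joined by summits within 100 bp, it held a region found only in WT at 0 h. Its DKO and WT folds may therefore belong to different sites.

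The other shared regions did not follow that order. Region 32 (chr6:99475071-99475822) had a fold of 6.65 and 8.17 in DKO and 6.05 and 5.54 in WT, so that DKO was higher, as at 28.2% of all such regions. Region 28 (chr6:99402408-99403098) had 7.87 and 6.50 in DKO and 9.17 and 7.11 in WT. Region 34 had 6.91 and 8.25 in DKO and 8.13 and 4.92 in WT. In regions 28 and 34 the genotypes overlapped. Regions 18 and 24 lie 127 and 167 kb from region 8, and region 32 lies 264 kb from it on the same side. Folds were not normalised between libraries by any step recorded here, and this contrast had served to choose the locus.

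**Figure D2:**
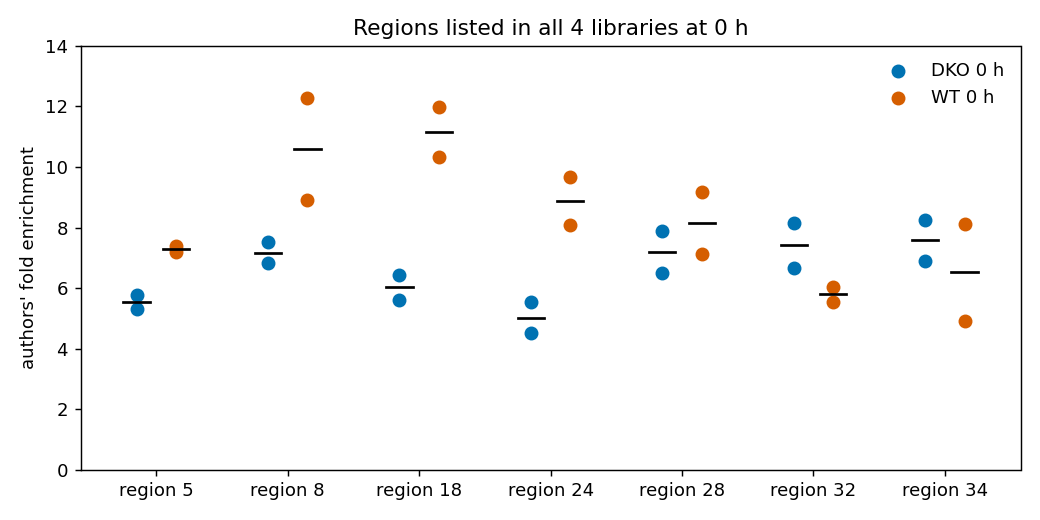
The authors' fold enrichment at 0 h in the 7 locus regions listed in all 4 naive libraries, DKO left of WT, with 1 point per library and a bar at the mean of 2. DKO points lie below WT points in regions 5, 8, 18 and 24, above them in region 32, and overlap them in regions 28 and 34.

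At 0 h, 10 of the 22 locus regions found in both WT libraries (45.5%) had no peak in either DKO library, against 6.81% over all regions. In the other direction it was 1 of the 10 found in both DKO libraries (10%), against 3.97%. These counts are those the locus was chosen for. The 10 regions spanned 455 kb, from region 3 to region 29, and 6 of them lay within chr6:99334840-99436526, a stretch of 102 kb that held 13 regions in all.

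In the lower part of the locus the regions found only in WT lay apart from each other. Region 3 (chr6:98981049-98981690) had WT folds of 4.02 and 6.84, and region 4 (chr6:99007052-99007485) 9.48 and 8.30. Region 6 (chr6:99121602-99122271) had 5.37 and 5.21, and region 7 (chr6:99207887-99208759) 4.04 and 4.14. Region 4 was the strongest of these by fold in both libraries. Region 7 stood at the very end of both lists, at rank percentiles of 0.118 and 0.0307. The nearest region found in both DKO libraries at 0 h was 63.5 kb from region 3, 37.7 kb from region 4 and 74.7 kb from region 6, and 2.21 kb from region 7.

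In the upper stretch the regions found only in WT lay among regions that DKO cells shared, with regions 19, 20 and 21 in an unbroken run. Region 17 (chr6:99334840-99335815) had a fold of 8.83 and 6.49 in WT and lay 2.63 kb from region 18, and region 25 (chr6:99382664-99383469) had 6.58 and 5.81 and lay 3.14 kb from region 24. Region 19 (chr6:99344538-99345191) had 7.56 and 6.74, region 20 (chr6:99345658-99346209) 9.27 and 5.09, and region 21 (chr6:99351684-99352510) 4.88 and 4.84. Region 29 (chr6:99436083-99436526) had 5.46 and 5.53 and lay 33.0 kb from the nearest region found in both DKO libraries. Over all 10 regions found only in WT, the WT rank percentiles ran from 0.0307 to 47.2 with a median of 30.6. The 7 regions shared by all 4 libraries had rank percentiles of 9.92 to 61.7 with a median of 30.3, over DKO and WT libraries pooled. That median is thus not comparable with the one over WT libraries alone. In WT alone, regions 5 and 8 had 31.3 and 29.8, and 59.5 and 57.4. Regions 18 and 24 had 46.2 and 54.8, and 50.1 and 61.7 in WT. Regions 28, 32 and 34 had 36.5 and 27.9, 14.7 and 9.92, and 43.0 and 13.5 in WT.

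Fold and −log10 p ordered the locus peaks differently. Region 4 had a fold of 9.48 in WT replicate 1 with a −log10 p of 15.8. Region 29 had a fold of 5.46 in the same list with a −log10 p of 17.7. Region 26 (chr6:99385190-99385597) had folds of 5.26 in DKO replicate 2 and 4.24 and 4.64 in WT, with −log10 p values of 23.9, 12.0 and 15.9. A fold close to the lowest one listed thus came with a −log10 p as high as at peaks of higher fold, and the local background behind each peak was not analysed here.

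The peak names carry running numbers, and some of the numbers are absent. Numbers rise with position in all 8 lists, and between 5.13% and 7.38% of them are absent. In the locus, or between its outermost peaks and the next ones, the naive lists lacked 4 and 3 numbers in DKO, against 1 and 4 in WT. The lists of cultured cells lacked 0 and 0 numbers in DKO, against 1 and 1 in WT. DKO replicate 2 at 0 h lacked 3 numbers within the 31.0 kb gap that holds regions 19 to 22. DKO replicate 1 lacked 1 within the 14.4 kb gap of regions 19 to 21, 1 within the 23.1 kb gap of regions 25 to 27, and 2 within the 105 kb gap of regions 13 to 17. Of the 10 regions found only in WT, regions 17, 19, 20, 21 and 25 thus lay where at least 1 DKO list lacks a number, and regions 3, 4, 6, 7 and 29, which make 5, did not. The files do not say whether an absent number stood for a peak, where in a gap it lay or why it is absent.

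The remaining regions were shared unevenly at 0 h. In 5 regions (1, 15, 16, 22 and 26) both WT libraries and 1 DKO library had a peak. In 2 regions (11 and 12) both DKO libraries and 1 WT library did. No share over all regions is given for these counts, so they are a tally only. Regions 15, 16, 22 and 26 lay where the DKO list without a peak lacks numbers. Region 12 lay where WT replicate 2 lacks 2. Region 12 (chr6:99233027-99233568) had a fold of 8.37 and 8.17 in DKO and 8.07 in WT replicate 1, so the value in that WT library was close to those of DKO. The single region found only in DKO was region 23 (chr6:99370557-99370924), with a fold of 7.94 and 7.63 in DKO, between regions 22 and 24. It had no peak in any library at 72 h. With a library left out the count found only in DKO was 2, without DKO replicate 2, without WT replicate 1 or without WT replicate 2.

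After 72 h the DKO libraries listed 1 and 3 peaks in the locus and the WT libraries 4 and 13. Per 1000 listed peaks this was 0.0967 and 0.185 in DKO and 0.231 and 0.488 in WT, with means of 0.141 ± 0.0623 and 0.359 ± 0.182 (SD, n = 2 each). DKO was lower in both libraries, by -0.219 per 1000 (exact two-sided permutation test, n = 2 against 2, p = 0.333, the smallest this design allows). Without WT replicate 2, the longer WT list, the difference was -0.0900, and without WT replicate 1 it was -0.347. With the same 10339 top peaks per list it was -0.0484 (exact permutation p = 1, n = 2 against 2).

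Region 4 was the only one found in both WT and neither DKO library at 72 h, which was 1 of the 4 locus regions found in both WT libraries (25%), against 15.1% over all regions. Its fold was 5.34 and 9.66 in WT at 72 h. With its peaks at 0 h it was listed in all 4 WT and no DKO library, as were 1.21% of the regions found in all 4 WT libraries. No locus region was found in both DKO and neither WT library at 72 h (0 of 1), against 0.121%, and none in all 4 DKO and no WT library, against 0.0509%. The count found only in WT at 72 h became 3 when DKO replicate 2 was left out and 10 when WT replicate 1 was. The count found in all 4 WT libraries alone was 5 without WT 72 h replicate 1.

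Of the 10 regions found only in WT at 0 h, 0 were listed in a DKO library after 72 h, against 2.59% of all regions found only in WT at 0 h. In a WT library it was 5 of 10 (50%), against 41.3%. The 5 were region 4 in both WT libraries and regions 3, 17, 25 and 29 in WT replicate 2. Their folds in WT replicate 2 at 72 h were 6.91 in region 3, 9.44 in region 17, 7.35 in region 25 and 5.67 in region 29. Of the 7 regions shared at 0 h, 3 (42.9%) were listed in a DKO library after 72 h, against 63.5% of all regions shared at 0 h, and 5 (71.4%) in a WT library, against 87.5%. Regions 5 and 28 were listed in no library at 72 h.

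**Figure D3:**
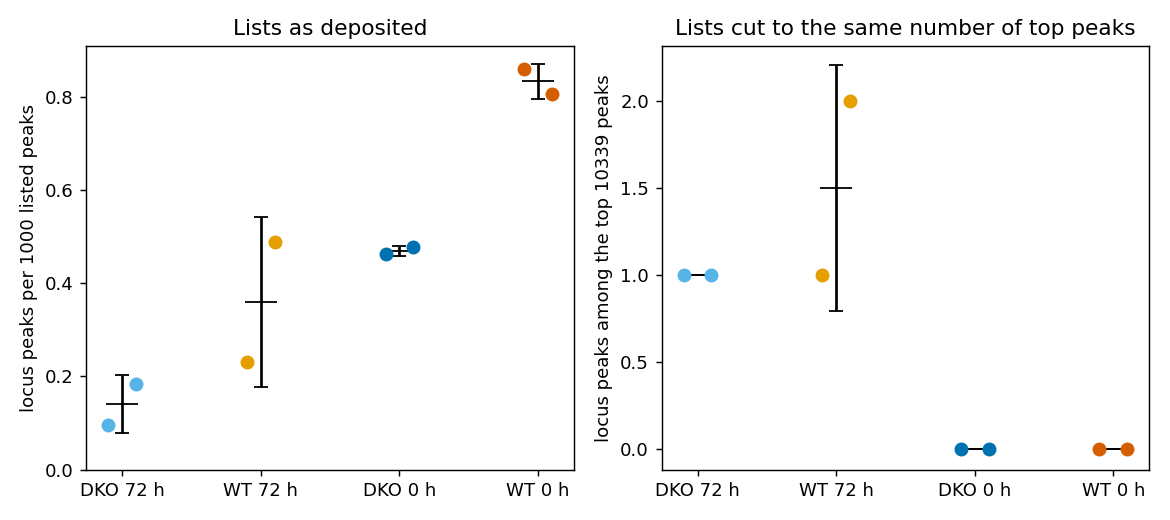
Locus peaks per 1000 listed peaks (left) and locus peaks among the top 10339 peaks of each list (right), with 1 point per library and bars at mean ± SD (n = 2). With full lists the 72 h points run from 0.0967 to 0.488, where WT replicate 2 (0.488) lies just above both naive DKO points (0.462 and 0.478), and naive WT lies highest (0.859 and 0.807). With equal lists there are 1 or 2 peaks per library at 72 h and 0 at 0 h.

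Within each genotype both lists of 72 h held fewer locus peaks than both lists of 0 h. Over both genotypes the 72 h minus 0 h difference was -0.401 peaks per 1000 listed. The peaks at 0 h had served to choose the locus, so this is a description with no test. With the same 10339 top peaks per library, there were 1 and 1 locus peaks in the DKO and 1 and 2 in the WT libraries of 72 h, and 0 in each library of 0 h. The difference was then 0.121 per 1000, in the opposite direction, and rests on 5 peaks of 72 h against naive lists with none at that length.

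Of the regions found in both libraries of a genotype at 0 h, 7 of 10 in DKO (70%) had no peak in either library at 72 h, against 42.3% over all regions. In WT it was 10 of 22 (45.5%), against 18.1%. The reverse was found at 0 of 1 region in DKO, against 0.465%, and at 0 of 4 in WT, against 1.36%. With lists of equal length within each genotype, the count specific to 0 h was 0, and 1 region was specific to 72 h, which was region 8 in DKO and region 4 in WT. The WT count specific to 0 h became 16 when WT 0 h replicate 2 was left out and 18 when WT 72 h replicate 2 was. The DKO count became 12 when DKO 0 h replicate 1 was left out. Of the 22 regions listed in both naive WT libraries, 4.55% and 13.6% were listed in the DKO libraries at 72 h, against 35.3% and 54.6% over all regions. In the WT libraries at 72 h it was 18.2% and 54.5%, against 58% and 81.3%. The part of rank and list length in these shares was not tested.

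Region 24 stood apart from the rest of the locus at 72 h. Its fold in WT cells was 10.7 and 18.9 at 72 h, against 8.09 and 9.68 at 0 h. Both 72 h values were above both 0 h values, as at 1.22% of the 16275 regions listed in all 4 WT libraries, whereas both were below at 75.7%. Region 24 was 1 of 4 such regions in the locus, and regions 4, 8 and 18 did not show this. Its rank percentile was 80.8 and 92.2 in the WT lists of 72 h, against 50.1 and 61.7 in those of 0 h. These lists differ in length, so the ranks show no change by themselves.

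In DKO cells region 24 showed no such values. It had no listed peak in replicate 1 at 72 h and a fold of 4.81 in replicate 2, and 4.50 and 5.55 at 0 h. With the top 10339 peaks of each 72 h list, region 24 was the region found in both WT and neither DKO library, in place of region 4. Region 24 was singled out after its values were seen, and 2 libraries against 2 allow no exact p under 0.333.

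**Figure D4:**
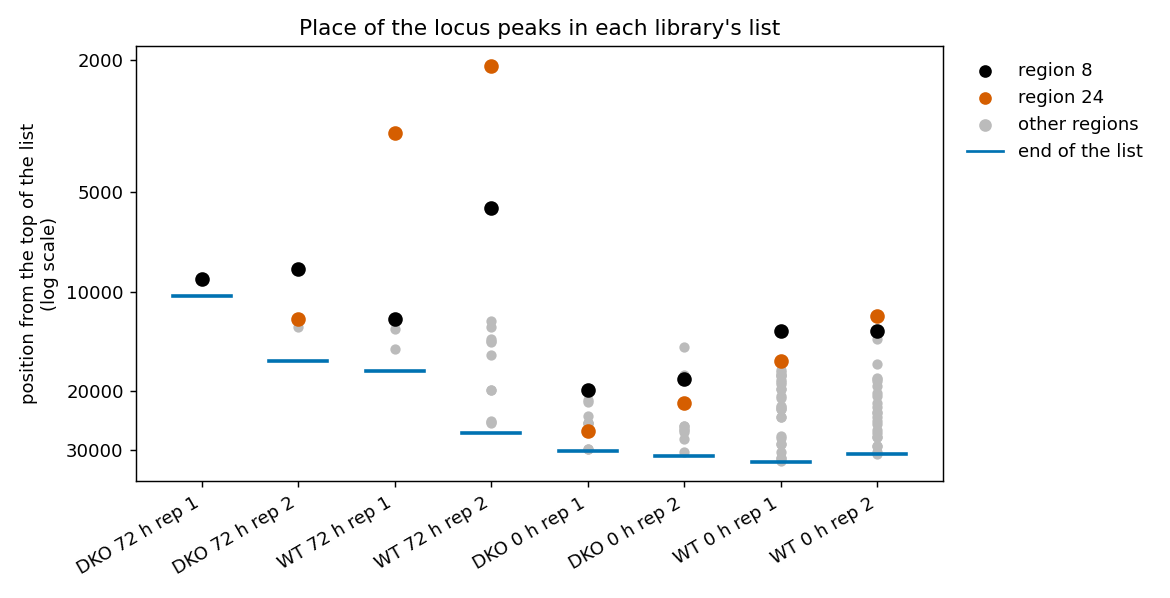
Position of each locus peak from the top of its library's list by −log10 p (log scale, top of the list at the top), with the end of each list as a blue line. Region 24 lies at 3326 and 2084 in WT at 72 h, above all other locus peaks, and lists differ in length. No naive library has a locus peak above position 11836.

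Among 1058 windows of 800 kb with at least 15 regions, 2 had 10 or more regions found only in WT at 0 h, the Foxp1 locus included, and the median was 1. The locus was chosen for such regions, so its place among the windows follows from the choice and is a description only. The counts were not scaled to the number of regions per window, which was 34 in the Foxp1 locus. The windows most like it in the share of their regions listed in each of the 8 libraries were chr4:107600000-108400000, chr9:42000000-42800000 and chr17:51600000-52400000, at Euclidean distances of 18.0, 21.7 and 24.2 percentage points. In the first of these, 5 of 15 regions found in both WT libraries at 0 h had no DKO peak, in the next 6 of 16, and in the last 3 of 12. Genes in these windows were not named, since mm9 annotation was not used here.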

How the data were processed

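CTCF occupancy was measured by CUT&RUN, in which an antibody-tethered nuclease releases bound DNA fragments. One peak list was deposited per library. The submitters' processing notes name build mm9, MACS2 2.1.1, Bowtie2 2.2.5 and FastQC, while the control and thresholds of the calling are not given in these sources. The deposited fold is the authors' enrichment over local background, a ratio. The deposited −log10 p and −log10 q are those of the authors' caller. The deposited score column was not used. The deposited summit offset, in bp, entered an alternative.

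Peaks on chromosomes 1 to 19 and X were merged at 1 bp overlap (Python 3.11.15), and of several peaks in a region the highest fold was taken. A region was found in a group when both libraries had a peak. Rank percentile and position were by −log10 p within a list. Shares of listed peaks were compared between genotypes at 72 h by exact permutation. A planned test of 72 h against 0 h is not reported, since peaks at 0 h chose the locus, and no p-value per region was given. The overlap step was tested on simulated lists. Alternatives were equal lists, 50% overlap, summits within 100 bp, −log10 q of at least 5, each library left out, a replicate block, a window wider by 200 kb, and, chosen after seeing the data, naive lists cut to the shortest of them and leaving out regions at absent peak numbers. The locus, the lists of regions and the tests were chosen with earlier results of these data known. Regions given with values were those found in one genotype or at one time only, those in all libraries and those at the edges. Region 24 and the other regions named were added after their values were seen. Peaks of chromosomes Y and M were left out of regions.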

Additional observations from a re-analysis of the deposited data

How the results depend on the processing

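The count of 10 regions found only in WT at 0 h was 8 to 10 with −log10 q of at least 5, equal lists, summits within 100 bp, 50% overlap and the wider window, and 12 to 13 with 1 library left out. Leaving out a library or widening the window could only keep or raise it. The regions behind the count changed in part. With summits within 100 bp, regions 3, 7 and 19 dropped out, and regions 1, 5 and 16 held such a region instead. At −log10 q of at least 5, regions 3, 6 and 7 dropped out and region 16 entered. With equal lists, regions 3 and 7 dropped out. Without regions where a list of the other group lacks a peak number, the count found only in WT at 0 h was 5. The count found only at 0 h in WT was then also 5. At −log10 q of at least 5, the count found only in WT at 72 h and that in all 4 WT and no DKO library were 0, and the DKO minus WT difference at 0 h was -0.316 peaks per 1000. For equal lists the count found only in WT at 0 h (8) is at 30309 peaks per list, where the 0 h difference was -0.313, a setting added after seeing the data. At 10339 peaks, where every naive list has 0 locus peaks, that difference was 0 and the 72 h minus 0 h difference 0.121. With equal lists within a genotype (10339 peaks in DKO, 17335 in WT) the counts found only at 0 h were 0 in each genotype, those only at 72 h were 1 in each, and at 10339 peaks that in every WT library alone was 0. The cause was not tested.

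With each library left out, the 72 h minus 0 h difference ran from -0.466 to -0.337 and the DKO minus WT difference from -0.347 to -0.0900 at 72 h and from -0.389 to -0.337 at 0 h. Counts ran from 1 to 2 (only DKO at 0 h), 1 to 10 (only WT at 72 h), 7 to 12 (DKO only at 0 h, against 72 h), 10 to 18 (WT likewise), 0 to 1 (WT only at 72 h) and 1 to 5 (all 4 WT and no DKO). Leaving out a library could only keep or raise these counts. Region by region, same-numbered libraries did not deviate together (correlations of -0.0167 to 0.0392 over 39574 regions). In list length at 72 h they did, since replicate 2 was longer in DKO (16234 against 10339 peaks) and in WT (26630 against 17335). The labels tie the numbers to nothing. With the replicate block the counts found only in WT, 10 at 0 h and 1 at 72 h, stayed as they were by construction, and the differences were -0.401 for time, with no test, and -0.219 for genotype at 72 h, where sign flips gave an exact p of 0.5, the smallest 2 pairs allow. Lists set the limit of detection, and read depth was not given.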
